A study of Mus musculus with 12 samples.

Results

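The integrins and the proteins that link them to the cytoskeleton were followed in the embryonic mouse lung across 3 genotypes. The list held 38 genes: the integrin alpha and beta chains, the kindlins, the talins, the Ilk complex, vinculin, paxillin and focal adhesion kinase. A gene was measured by the probe set that carried its symbol and no other, and by the brightest one where several did. By that rule 35 of the 38 genes were found among 22180 genes. The expression of Itga10, Ptk2 and Ilk is not analysed here, since no probe set carried their symbol alone. The 35 genes were grouped by the ligand or the role each protein is known for: 4 laminin receptor chains, 3 collagen receptor chains, the shared chain Itgb1, 8 chains of fibronectin and other RGD receptors, Itga4 and Itga9, 6 leukocyte integrin chains, 3 kindlins, 2 talins, 4 proteins of the Ilk complex, and vinculin with paxillin.

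Total RNA from lungs at the E14.5 stage was hybridised to Affymetrix arrays, with 4 specimens for each genotype. The control embryos were Shh+/Cre, with Cre recombinase at 1 Shh allele. The Yy1 mutants were Yy1flox/flox;Shh+/Cre and the Dicer mutants were Dicerflox/flox;Shh+/Cre, so all 3 groups carried the Cre allele and no group lacked it. Yy1 is a zinc finger transcription factor, and Dicer is the enzyme that cuts microRNAs from their precursors. In the lung the Shh locus is active in the epithelium, so the floxed alleles are recombined there, while mesenchymal, endothelial and blood cells keep theirs. The labels give no litter, sex or pooling of embryos, and p-values measure only the spread between these specimens.

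Integrins are receptors made of 1 alpha and 1 beta chain that bind the extracellular matrix or proteins on other cells. The pairing of chains sets the ligand: laminins in basement membranes, collagens, or proteins such as fibronectin, vitronectin and nephronectin that carry the RGD tripeptide. Talins and kindlins bind the tail of the beta chain and switch the receptor to its active form, and the Ilk complex, vinculin and paxillin couple it to actin. In the developing lung these receptors hold the branching epithelium on its basement membrane and connect it with the surrounding mesenchyme.

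All values are log2 signals, so a difference of 1 is a doubling. The values spanned 1.10 to 13.6, from which base 2 was inferred, and the array medians lay at 5.99 to 6.08. The Yy1 probe set read 9.03 ± 0.0710 (SD, n = 4) in controls and 8.84 ± 0.104 in Yy1 mutants, a difference of -0.19 that was not called (limma, adjusted p = 0.125). Dicer1 fell by 0.61 in Dicer mutants (adjusted p = 0.00127). Whether these probe sets lie in the floxed exons was not tested. Y-linked genes read higher in Yy1 mutants 2 and 3 and in Dicer mutant 4. A result is also given with these 3 arrays left out, called the Y-high arrays here, where a call depended on them. None of them is a control, so those fits hold fewer arrays of both mutants. Marker genes of cell types moved in both mutants. Of 10 epithelial markers 8 fell in Yy1 mutants and 8 in Dicer mutants, of 8 smooth muscle markers 7 and 8 fell, of 8 mesenchymal markers 6 and 6 rose, and of 12 macrophage and leukocyte markers 9 and 10 rose. Of 7 endothelial markers 6 rose in Dicer mutants. In Yy1 mutants 0 of them were called by limma, with 0 at an unadjusted p under 0.05. Of all genes, 6.61% were called in Yy1 mutants and 8.75% in Dicer mutants. In whole lung RNA, fewer cells of a type and less RNA per cell cannot be told apart, and the part of cell composition in the results below was not tested.

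Some integrin genes changed in each mutant, all by less than 2-fold except Fermt1 in Dicer mutants. In Yy1 mutants 4 of the 35 genes rose, 5 fell and 26 were not called at an adjusted p under 0.05 (limma with Benjamini-Hochberg adjustment over all 22180 genes). That is a share of 25.7%, where 6.61% of all genes were called, 2.77% rising and 3.84% falling. The members and the ligand and adaptor lists were chosen with earlier results of these data known. The shares given here and below therefore do not test these lists. In Dicer mutants 7 rose, 1 fell and 27 were not called, 22.9% against 8.75% of all genes, of which 4.78% rose and 3.97% fell. The direct comparison of the mutants called 9 of the 35, with 3 higher and 6 lower in Yy1 mutants. There 4.96% of all genes were called, 1.57% higher and 3.39% lower. An unadjusted limma p under 0.05 was found for 4266, 4948 and 3965 of all 22180 genes in these 3 comparisons. The unadjusted counts given below are to be read beside these. The arrays of the 2 groups compared did not overlap for 13, 12 and 12 of the 35 genes in these 3 comparisons, beside 12.6%, 16% and 13.8% of all genes. The share called over all genes depends on the dim genes in it. Without the dimmest 30%, 1838, 2374 and 1387 of 15526 genes were called in these comparisons, a larger share, and 10, 8 and 10 of the members. The median difference over the 35 genes was 0.04 in Yy1 mutants and 0.09 in Dicer mutants, beside 0.00 and -0.03 over all genes. Both mutants were compared with the same 4 controls, so their differences from control are not independent.

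The calls fell on 13 genes. Itga8, Itgav and Itgb8 rose in both mutants, and Itgb5 was called higher in Yy1 mutants. Itgb3, Itgb6, Itga4 and Vcl were called lower in Yy1 mutants. Itga6, Itga2 and Itgam were called higher in Dicer mutants and Itga9 lower. Fermt1 was called in opposite directions, lower in Yy1 mutants and higher in Dicer mutants. The other 22 genes were called in neither mutant, with differences of -0.27 to 0.22 in Yy1 mutants and -0.12 to 0.28 in Dicer mutants. Of the 24 integrin chains 7 were called in each mutant, 29.2% where 6.61% and 8.75% of all genes were called. Of the 11 proteins inside the cell 2 were called in Yy1 mutants, 18.2%, and 1 in Dicer mutants, 9.09%, which is near the share of all genes called there.

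**Figure D1:**
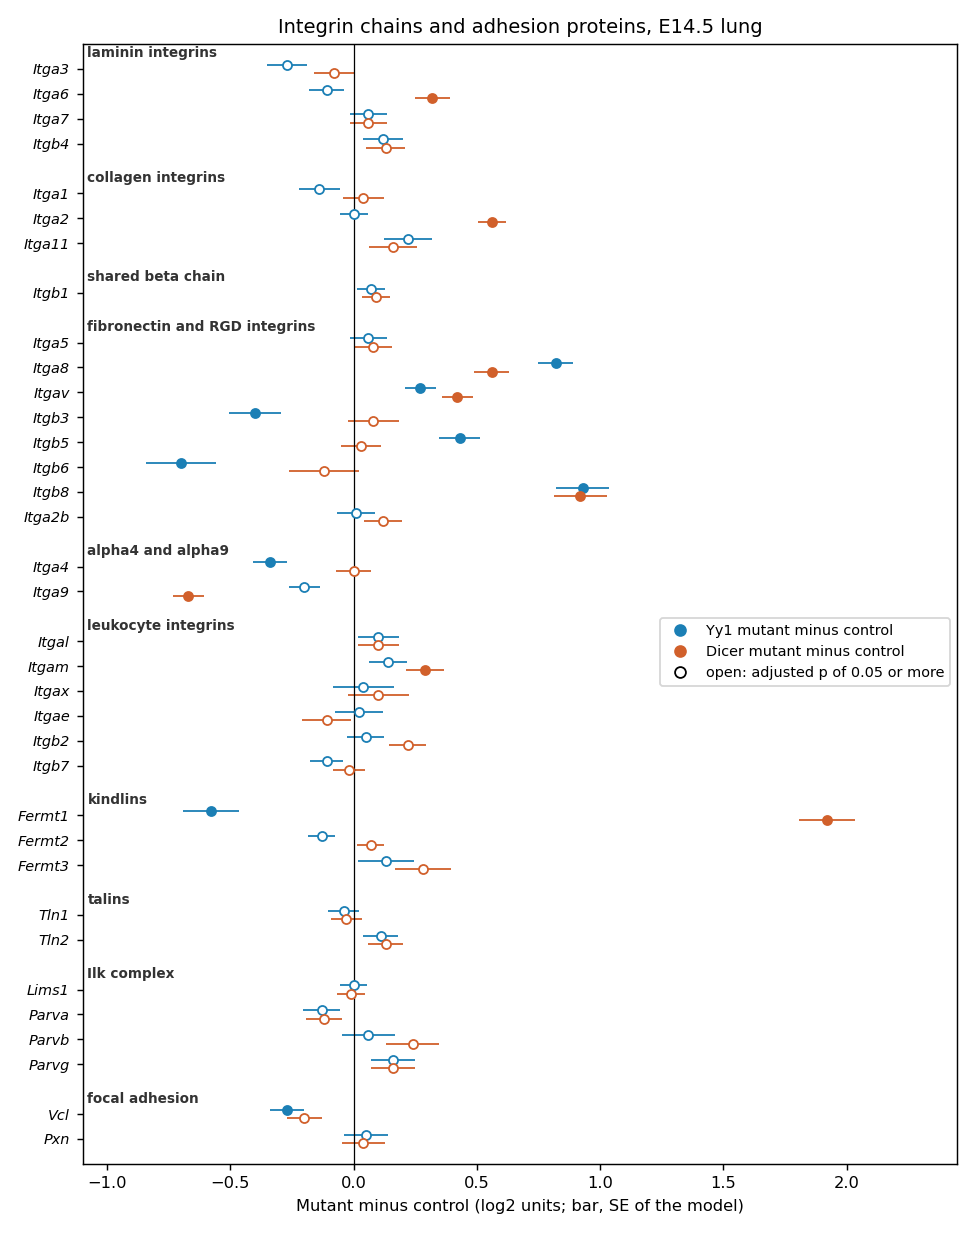
Log2 difference from control (x axis, points with the SE of the limma fit as bars) for the 35 genes, grouped by role, in Yy1 mutants and Dicer mutants with 4 arrays each. Filled points have an adjusted p under 0.05, open points do not. Fermt1 in Dicer mutants lies farthest from 0, at 1.92, and Itgb8 lies at 0.93 and 0.92.

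Yy1 binds DNA, so the promoters of the members were searched for its motif. RefSeq windows of 300 bases, from 250 before to 50 after the start, were at hand for 27 of the 38 listed genes on the GRCm38.p6 build, in 33 windows. Ilk is among these genes, and a gene with several windows is counted with each. The Yy1 motif GCCATNTT was in 0 of the 33 windows on either strand and in 6.05% of the 32851 windows of all genes. The GC box GGGCGG was in 48.5% of the members' windows and 35.7% of all windows, and the E-box CAGGTG in 24.2% and 20.2%. A match is only a match of letters, and the absence of one says only that these letters are not in the window. The 250 bases before the start are shown for the gene with opposite changes, for the RGD receptor chains with the largest rise in both mutants, and for the chain that fell in Dicer mutants. Each is written 5′ to 3′ on the strand of its gene, with matches to a GC box or an E-box in capitals. Fermt1 lies at chr2:132946037-132946286 on the minus strand, Itgb8 at chr12:119238277-119238526 on the minus strand, Itga8 at chr2:12301945-12302194 on the minus strand and Itga9 at chr9:118711442-118711691 on the plus strand.
Fermt1: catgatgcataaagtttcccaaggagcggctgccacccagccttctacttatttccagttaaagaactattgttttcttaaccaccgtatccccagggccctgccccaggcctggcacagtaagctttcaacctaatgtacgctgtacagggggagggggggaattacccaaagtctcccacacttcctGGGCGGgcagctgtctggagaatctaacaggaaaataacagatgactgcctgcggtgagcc
Itgb8: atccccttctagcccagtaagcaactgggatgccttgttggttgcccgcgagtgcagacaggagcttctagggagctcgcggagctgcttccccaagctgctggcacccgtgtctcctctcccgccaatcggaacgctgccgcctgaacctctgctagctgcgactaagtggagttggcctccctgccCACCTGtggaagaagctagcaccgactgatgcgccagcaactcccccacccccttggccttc
Itga8: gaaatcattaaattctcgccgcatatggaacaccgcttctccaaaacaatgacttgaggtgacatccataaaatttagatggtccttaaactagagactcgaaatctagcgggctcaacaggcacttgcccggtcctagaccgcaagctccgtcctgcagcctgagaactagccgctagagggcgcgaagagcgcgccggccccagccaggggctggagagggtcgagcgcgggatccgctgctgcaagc
Itga9: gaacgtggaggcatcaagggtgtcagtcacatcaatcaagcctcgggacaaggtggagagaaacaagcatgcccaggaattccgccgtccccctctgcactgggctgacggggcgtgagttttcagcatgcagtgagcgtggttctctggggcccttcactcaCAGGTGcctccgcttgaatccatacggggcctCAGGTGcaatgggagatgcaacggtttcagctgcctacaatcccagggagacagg
The Fermt1 stretch holds 1 GC box, the Itgb8 stretch 1 E-box read on the opposite strand and the Itga9 stretch 2 E-boxes, while the Itga8 stretch holds none of the searched motifs. Bases G and C make up 52.4%, 62.4%, 56.4% and 58.4% of the 4 stretches in the order printed.

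The kindlins differed from each other. Fermt1, the kindlin of epithelial cells, fell in Yy1 mutants and rose 3.78-fold in Dicer mutants, while Fermt2, the kindlin of most adherent cells, and Fermt3, the kindlin of blood cells, were not called against control. The 4 controls read 6.67, 7.01, 6.76 and 6.45 for Fermt1, the Yy1 mutants 6.21, 6.15, 6.04 and 6.18, and the Dicer mutants 8.41, 8.62, 8.85 and 8.68. The 3 genotypes did not overlap: every Yy1 mutant lay below every control and every Dicer mutant above. The difference was -0.58 in Yy1 mutants (SE 0.113, 1.49-fold, adjusted p = 0.00683) and 1.92 in Dicer mutants (SE 0.113, adjusted p = 4.913e-07). Set directly against each other, the mutants differed by -2.49, or 5.63-fold (Yy1 minus Dicer, adjusted p = 4.86e-08). The Yy1 call was lost without the Y-high arrays (adjusted p = 0.118), and the Dicer call and the direct difference held in all 21 alternative settings. The epithelial marker list had a mean log2 level per array of 8.99 to 9.26 in controls, 8.17 to 8.51 in the Yy1 mutants and 8.49 to 8.73 in the Dicer mutants. Its genes did not move alike in Dicer mutants. There 8 of the 10 were called lower, while Epcam (0.11) and Cdh1 (-0.32) were not called. The part of epithelial content in the Fermt1 values was not tested.

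Fermt2 read 9.24, 9.27, 9.24 and 9.24 in controls, 9.08, 9.13, 9.14 and 9.14 in the Yy1 mutants and 9.26, 9.34, 9.39 and 9.30 in the Dicer mutants. The Yy1 mutants lay below both other genotypes without overlap, but the differences were small. They were -0.13 (adjusted p = 0.218) in Yy1 mutants, 0.07 (adjusted p = 0.490) in Dicer mutants and -0.20 between the mutants (adjusted p = 0.0545). The last was called with an intensity trend in the prior (0.016), with array weights (0.0208) and without the dimmest 30% of genes (0.0266). Fermt3 read 6.31, 6.62, 6.60 and 6.34 in controls, 6.49, 6.91, 6.65 and 6.34 in the Yy1 mutants and 6.64, 6.81, 6.78 and 6.76 in the Dicer mutants. The Yy1 mutants overlapped the controls, and the Dicer mutants lay just above them. Its differences were 0.13 (95% confidence interval -0.11 to 0.38, adjusted p = 0.601) and 0.28 (0.04 to 0.52, adjusted p = 0.160), and neither was called.

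**Figure D2:**
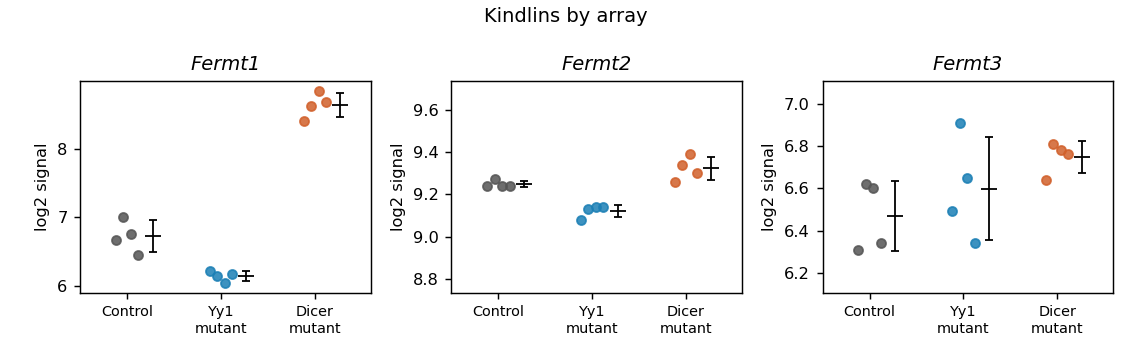
Log2 signal (y axis) of Fermt1, Fermt2 and Fermt3 in each of the 12 arrays by genotype (x axis), with the mean and SD of 4 arrays. The Fermt1 arrays form 3 separate levels, at means of 6.72 in controls, 6.14 in the Yy1 mutants and 8.64 in the Dicer mutants.

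Chains of the receptors for fibronectin and other RGD proteins moved in both directions in Yy1 mutants. Of the 8 chains 4 rose and 2 fell there, and in Dicer mutants 3 rose and none was called lower. That is 75% and 37.5% of the chains, where 6.61% and 8.75% of all genes were called. The medians of the 8 differences were 0.17 and 0.10. Itgb8, which pairs with the alpha v chain and releases active TGF-beta from its latent complex, rose 1.90-fold in each mutant. Controls read 6.92, 7.41, 7.22 and 7.38, Yy1 mutants 8.33, 8.01, 8.06 and 8.22, and Dicer mutants 8.18, 8.03, 8.19 and 8.22. Every mutant array lay above every control. The differences were 0.93 (SE 0.107, adjusted p = 0.000147) and 0.92 (adjusted p = 0.000128), and between the mutants 0.00 with a 95% confidence interval of -0.23 to 0.23.

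Itga8, a chain of mesenchymal cells and smooth muscle that binds nephronectin, rose in both mutants. Controls read 9.54, 9.48, 9.44 and 9.46, Yy1 mutants 10.31, 10.24, 10.29 and 10.38, and Dicer mutants 9.92, 10.22, 9.97 and 10.05. None of the 3 genotypes overlapped another. The rise was 0.82 (SE 0.0706, 1.77-fold, adjusted p = 1.183e-05) in Yy1 mutants and 0.56 (1.47-fold, adjusted p = 0.000263) in Dicer mutants. Both calls held in all 21 settings, as did both calls of Itgb8. The difference of 0.27 between the mutants had an adjusted p of 0.0460 and was called in 6 of 21 settings. It was lost when any 1 array other than Dicer mutant 2 was left out, with adjusted p of 0.0520 to 0.133, and without the Y-high arrays (0.210). It was also lost with the replicate number as a block (0.0813), with only the 2 mutants in the fit (0.0817) and with equal array medians (0.0882). The mesenchymal marker list rose beside Itga8, with mean log2 levels per array of 9.54 to 9.68 in controls, 10.10 to 10.24 in the Yy1 mutants and 9.97 to 10.20 in the Dicer mutants, and its part in the rise was not tested. The smooth muscle list went the other way, at 8.88 to 9.14 in controls, 7.36 to 7.90 in the Yy1 mutants and 7.42 to 8.06 in the Dicer mutants.

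Itgav, the alpha v chain that pairs with Itgb3, Itgb5, Itgb6 and Itgb8, rose in both mutants. It read 9.41, 9.27, 9.31 and 9.25 in controls, 9.55, 9.61, 9.63 and 9.52 in the Yy1 mutants and 9.67, 9.67, 9.74 and 9.83 in the Dicer mutants. Both mutants lay above all controls. The rise was 0.27 (SE 0.0634, 1.21-fold, adjusted p = 0.0193) in Yy1 mutants and 0.42 (1.34-fold, adjusted p = 0.00101) in Dicer mutants. The Yy1 call was lost without control 4 (0.0508), without Yy1 mutant 3 (0.0647) and without the Y-high arrays (0.197). Averaged with a second, dim Itgav probe set, the differences were 0.08 (adjusted p = 0.630) and 0.16 (adjusted p = 0.249), so both calls rest on the brighter probe set.

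The partners of the alpha v chain moved in different directions. Itgb5, a vitronectin receptor chain, read 9.33, 9.28, 9.19 and 9.12 in controls, 9.81, 9.62, 9.64 and 9.59 in the Yy1 mutants and 9.09, 9.40, 9.22 and 9.34 in the Dicer mutants. Its Yy1 mutant arrays lay above all others, while Dicer mutants and controls overlapped. It rose by 0.43 in Yy1 mutants (SE 0.0819, 1.35-fold, adjusted p = 0.00529), differed by 0.03 in Dicer mutants (adjusted p = 0.866), and was 0.40 higher in Yy1 than in Dicer mutants (adjusted p = 0.0105). Without the Y-high arrays these calls were lost, at 0.0545 and 0.0858.

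Itgb6, the epithelial partner that also activates TGF-beta, read 6.11, 6.08, 5.98 and 6.0 in controls, 5.29, 5.48, 5.44 and 5.15 in the Yy1 mutants and 5.98, 5.57, 6.40 and 5.72 in the Dicer mutants. All Yy1 mutants lay below all other arrays, and the Dicer mutants spread on both sides of the controls. Itgb6 was dim, with a mean over all arrays of 5.77, below the array medians of 5.99 to 6.08. It fell by 0.70 in Yy1 mutants (SE 0.143, 1.63-fold, adjusted p = 0.00862, called in all 21 settings), with a difference of -0.12 in Dicer mutants (adjusted p = 0.671). The difference between the mutants, -0.58 (adjusted p = 0.0333), was lost without Yy1 mutant 1 (0.0840), 3 (0.0591) or 4 (0.104), and without Dicer mutant 1 (0.0766) or 3 (0.0522). It was lost as well with only the 2 mutants in the fit (0.0786) and without the Y-high arrays (0.0816). The epithelial marker list had a median difference of -0.72 in Yy1 mutants, and its part in the Itgb6 fall was not tested.

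Itgb3, the chain shared by the alpha v receptor and the platelet fibrinogen receptor, read 7.19, 6.96, 6.93 and 7.07 in controls, 6.52, 6.79, 6.59 and 6.65 in the Yy1 mutants and 7.24, 6.90, 7.36 and 6.99 in the Dicer mutants. The Yy1 mutants lay below all other arrays. It fell by 0.40 in Yy1 mutants (SE 0.104, 1.32-fold, adjusted p = 0.0334), and the mutants differed by -0.49 (1.40-fold, adjusted p = 0.0147). The first call was lost without control 1 (0.102) or 4 (0.0704), without Yy1 mutant 1 (0.102), 3 (0.0878) or 4 (0.0718), without the Y-high arrays (0.111) and with the replicate number as a block (0.0695). The second was lost without Yy1 mutant 1 (0.0514) and without those arrays (0.0693). Its platelet partner Itga2b differed by 0.01 and 0.12 and was not called.

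Itga5, the main fibronectin receptor chain, gave no call. Controls read 9.04, 8.89, 8.74 and 8.79, Yy1 mutants 9.03, 8.89, 8.94 and 8.85, and Dicer mutants 9.02, 8.94, 8.85 and 8.99, and all 3 genotypes overlapped. The differences were 0.06 (95% confidence interval -0.10 to 0.23) and 0.08 (-0.08 to 0.25).

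**Figure D3:**
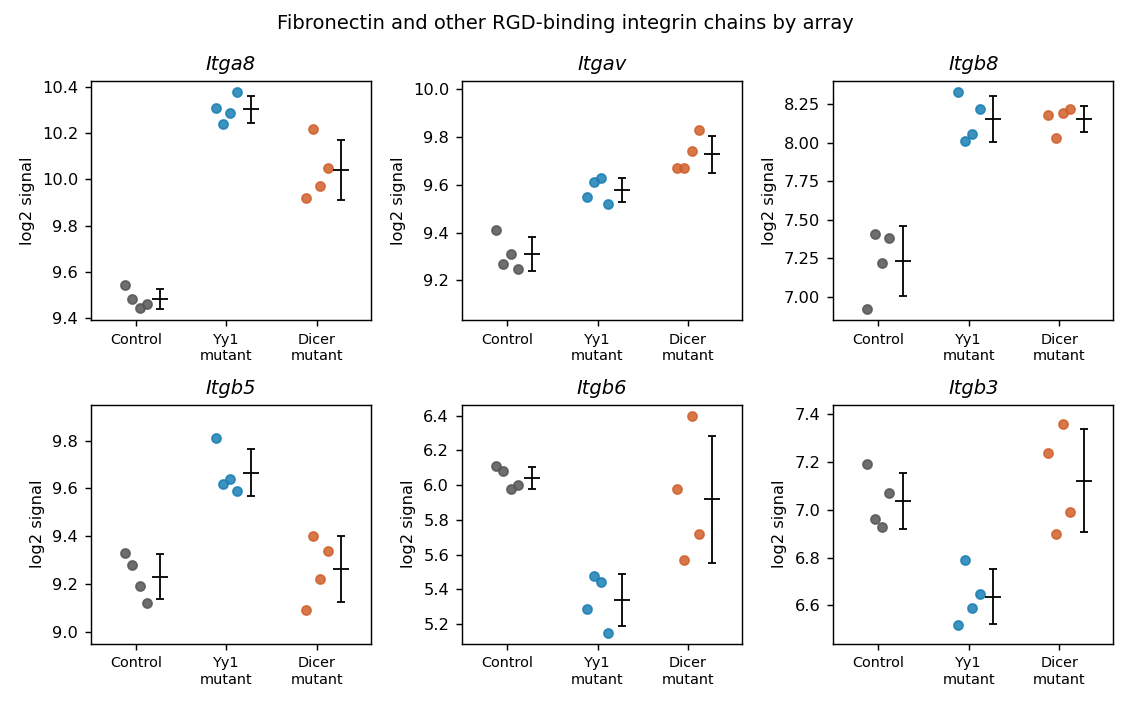
Log2 signal (y axis) of 6 chains of RGD receptors in each array by genotype (x axis), with the mean and SD of 4 arrays. Itgb8 and Itga8 lie higher in both mutants, Itgav does so by less, Itgb5 lies higher in Yy1 mutants, and Itgb6 and Itgb3 lie lower there.

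The laminin receptor chains gave 1 call. In Yy1 mutants 0 of 4 were called by limma, where 6.61% of all genes were called, and 1 had an unadjusted p under 0.05. In Dicer mutants 1 rose, 25% where 8.75% of all genes were called. Itga6, the chain of the basement membrane and hemidesmosome receptors, read 9.60, 9.80, 9.61 and 9.60 in controls, 9.49, 9.67, 9.59 and 9.44 in the Yy1 mutants and 9.89, 10.00, 9.99 and 10.01 in the Dicer mutants. All Dicer mutants lay above all other arrays, and Yy1 mutants overlapped the controls. It rose by 0.32 in Dicer mutants (SE 0.0719, 1.25-fold, adjusted p = 0.0138), a call lost without the Y-high arrays (0.0567). The difference of -0.11 in Yy1 mutants was not called (adjusted p = 0.477), and the mutants differed by -0.42 (1.34-fold, adjusted p = 0.00313) in all 21 settings.

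Itga3, the laminin receptor chain of lung epithelium, read 8.59, 8.72, 8.54 and 8.62 in controls, 8.28, 8.53, 8.32 and 8.27 in the Yy1 mutants and 8.64, 8.37, 8.62 and 8.52 in the Dicer mutants. Yy1 mutants lay below all controls, with Yy1 mutant 2 nearest to them. The difference of -0.27 (SE 0.0805) was not called (adjusted p = 0.0694), but was called without Yy1 mutant 2 (0.0272), with an intensity trend (0.0291), without the dimmest 30% of genes (0.0374) and with array weights (0.0468). The part of epithelial content in the Itga3 values was not tested. Itga7 and Itgb4 were not called in any comparison, at 0.06 and 0.12 in Yy1 mutants and 0.06 and 0.13 in Dicer mutants.

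Laminins are the ligands of these receptors. The chains given here are those with the smallest p among the called ligands, and the other laminins are counted with the ligands below. Lama3, the alpha chain of the epithelial laminin that is bound by Itga3 and Itga6, read 8.91, 9.12, 9.02 and 9.07 in controls, 8.08, 7.87, 7.94 and 8.08 in the Yy1 mutants and 9.89, 9.57, 9.92 and 9.53 in the Dicer mutants. Like Fermt1 it formed 3 levels without overlap. It fell by 1.04 in Yy1 mutants (SE 0.0968, 2.06-fold, adjusted p = 2.726e-05) and rose by 0.70 in Dicer mutants (1.62-fold, adjusted p = 0.000553). Lamb3, its partner chain, fell in both, by 0.97 (adjusted p = 0.000138) and 0.59 (adjusted p = 0.00499). Lama5, the alpha chain of most epithelial basement membranes, read 8.80, 9.08, 8.92 and 8.89 in controls and 8.29, 8.49, 8.27 and 8.09 in Yy1 mutants, a fall of 0.64 (adjusted p = 0.00115). Its difference in Dicer mutants was -0.20 (adjusted p = 0.242). The part of epithelial content in these laminin values was not tested. Lama1, an early embryonic laminin chain, rose by 0.76 in Dicer mutants (1.70-fold, adjusted p = 0.000116), where the arrays read 8.11, 7.89, 8.12 and 7.92 against 7.34, 7.19, 7.39 and 7.08 in controls. Lama4, the chain of vessel basement membranes, rose there by 0.38 (adjusted p = 0.00434). These calls held in all 21 settings. The difference of Lama4 in Yy1 mutants, 0.25, was not called (adjusted p = 0.0504) but was called in 7 of the 21.

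The collagen receptor chains showed 1 change. Itga2, the chain of epithelial and platelet collagen receptors, read 9.28, 9.30, 9.27 and 9.27 in controls, 9.30, 9.29, 9.31 and 9.21 in the Yy1 mutants and 9.87, 9.84, 9.76 and 9.88 in the Dicer mutants. Every Dicer mutant lay above every other array, while Yy1 mutants overlapped the controls, Yy1 mutant 4 lying below all of them. It rose by 0.56 in Dicer mutants (SE 0.0564, 1.47-fold, adjusted p = 4.08e-05), and its difference in Yy1 mutants was 0.00 with a 95% confidence interval of -0.12 to 0.12. The mutants differed by -0.56 (adjusted p = 6.985e-05), and both calls held in all 21 settings. Of the 3 collagen receptor chains limma called 0 in Yy1 mutants, with 1 at an unadjusted p under 0.05, and 1 in Dicer mutants. Of all genes, 6.61% and 8.75% were called. Itga1 and Itga11 differed by -0.14 and 0.22 in Yy1 mutants and by 0.04 and 0.16 in Dicer mutants.

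Itgb1, the beta chain shared by the laminin and collagen receptor alpha chains, was not called. It read 10.62, 10.64, 10.61 and 10.62 in controls, 10.69, 10.70, 10.72 and 10.64 in the Yy1 mutants and 10.66, 10.68, 10.79 and 10.74 in the Dicer mutants. The controls lay at or below the lowest mutant array, yet the differences were small: 0.07 (95% confidence interval -0.05 to 0.19, adjusted p = 0.584) and 0.09 (-0.03 to 0.21, adjusted p = 0.352).

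Itga4 and Itga9 are related alpha chains. Against control, Itga4 was called lower in Yy1 mutants and Itga9 in Dicer mutants. Itga4, the receptor chain for Vcam1 and fibronectin, read 8.17, 8.19, 8.03 and 8.04 in controls, 7.76, 7.82, 7.71 and 7.79 in the Yy1 mutants and 8.10, 7.98, 8.23 and 8.13 in the Dicer mutants. Yy1 mutants lay below all other arrays. It fell by 0.34 in Yy1 mutants (SE 0.0696, 1.26-fold, adjusted p = 0.00941), the Dicer difference was 0.00 (adjusted p = 0.985), and the mutants differed by -0.34 (adjusted p = 0.0109). Both calls were lost without the Y-high arrays, at 0.112 and 0.173. Itga9, a receptor chain for tenascin C and Vcam1, read 9.08, 8.94, 8.99 and 8.93 in controls, 8.80, 8.86, 8.77 and 8.74 in the Yy1 mutants and 8.32, 8.24, 8.42 and 8.28 in the Dicer mutants. The 3 genotypes did not overlap. It fell by 0.67 in Dicer mutants (SE 0.0641, 1.59-fold, adjusted p = 2.644e-05) and was 0.48 higher in Yy1 than in Dicer mutants (1.39-fold, adjusted p = 0.000635), both in all 21 settings. The Yy1 difference of -0.20 was not called (adjusted p = 0.0937), except with an intensity trend in the prior (0.0451).

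**Figure D4:**
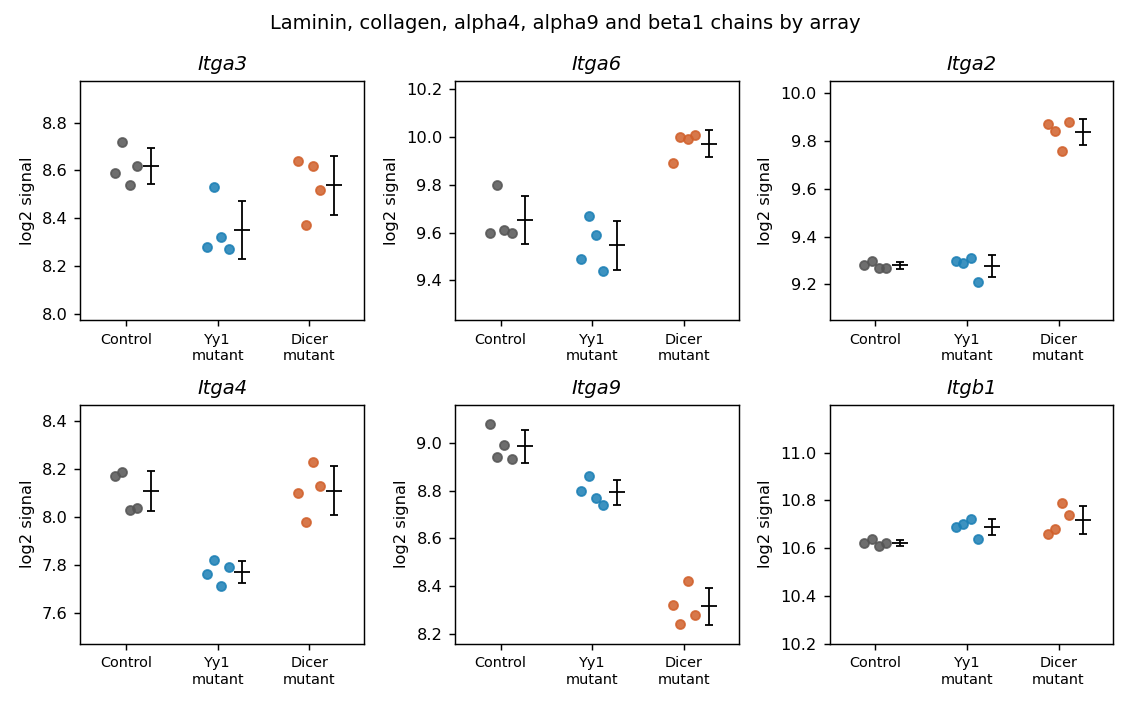
Log2 signal (y axis) of Itga3, Itga6, Itga2, Itga4, Itga9 and Itgb1 in each array by genotype (x axis), with the mean and SD of 4 arrays. Itga2 and Itga6 lie higher in Dicer mutants, Itga9 lies lowest in Dicer mutants, and Itga4 lies lower in Yy1 mutants. Each panel has its own range.

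Of 39 listed integrin ligands 36 were measured. In Yy1 mutants 3 rose, 7 fell and 26 were not called, 27.8% where 6.61% of all genes were called, with a median difference of -0.10. In Dicer mutants 12 rose and 2 fell, 22 had no call, the share called was 38.9% against 8.75%, and the median was 0.09. In the direct comparison 0 were higher and 11 lower in Yy1 mutants, 30.6% where 4.96% of all genes were called, with a median of -0.15. At an unadjusted p under 0.05 there were 18 of the 36, and 3965 of all 22180 genes. Egfl6, an RGD protein that binds the Itga8 receptor, read 10.37, 11.00, 10.28 and 10.33 in controls, 10.09, 10.30, 9.96 and 9.93 in the Yy1 mutants and 11.38, 11.33, 11.50 and 11.30 in the Dicer mutants. It rose by 0.88 in Dicer mutants (1.84-fold, adjusted p = 0.00145), above every other array, and the mutants differed by -1.30 (2.47-fold, adjusted p = 0.000107), in all 21 settings. Its difference of -0.42 in Yy1 mutants was not called (adjusted p = 0.0973).

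Fn1, fibronectin itself, read 11.41, 11.37, 11.35 and 11.41 in controls and 11.75, 11.83, 11.73 and 11.63 in Yy1 mutants, a rise of 0.35 (adjusted p = 0.00330) that was lost without the Y-high arrays (0.0837). In Dicer mutants it read 11.55, 11.57, 11.64 and 11.64, and the rise of 0.21 (adjusted p = 0.0466) was called in 6 of 21 settings. That call was lost without any 1 of the controls, of the Dicer mutants, or of Yy1 mutants 1 and 3, at adjusted p of 0.0541 to 0.135. It was also lost with equal array medians (0.0507), with only the 2 genotypes compared in the fit (0.0671), with a replicate block (0.0849), with quantile normalisation (0.119) and without the Y-high arrays (0.160). Npnt, nephronectin, the main ligand of the Itga8 receptor, is given here after its values were seen. It read 9.79, 10.67, 9.82 and 9.81 in controls, 10.57, 11.05, 10.65 and 10.43 in the Yy1 mutants and 10.78, 10.86, 10.76 and 10.88 in the Dicer mutants. Control 2 lay among the mutants. The rise was 0.80 in Dicer mutants (1.74-fold, adjusted p = 0.0132, all 21 settings) and 0.65 in Yy1 mutants (adjusted p = 0.0450, called in 8 of 21). The Yy1 call was lost without control 1, 3 or 4 (0.133, 0.119 and 0.107), without Yy1 mutant 1, 2 or 3 (0.0796, 0.116 and 0.0922), without any 1 Dicer mutant (0.0570 to 0.0612), and without the Y-high arrays (0.340).

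Tnc, tenascin C, a ligand of Itga9 and of the alpha v receptors, read 8.66, 9.20, 8.68 and 8.77 in controls, 8.23, 8.35, 8.03 and 7.58 in the Yy1 mutants and 7.41, 7.06, 7.98 and 7.74 in the Dicer mutants. Both mutants lay below all controls. It fell by 1.28 in Dicer mutants (2.42-fold, adjusted p = 0.00142, all 21 settings). Its fall of 0.78 in Yy1 mutants (adjusted p = 0.0339), given here after its values were seen, was lost without any 1 control (0.0523 to 0.0913), without Yy1 mutant 1, 3 or 4 (0.0509, 0.0796 and 0.0971), without the Y-high arrays (0.102) and with a replicate block (0.0725). Among the other ligands, Cdh1, E-cadherin, the ligand of Itgae, fell by 0.88 in Yy1 mutants (adjusted p = 0.000706, all 21 settings). Cdh1 is also 1 of the 10 epithelial markers, of which 8 fell there, and their part in its fall was not tested. Thbs1, thrombospondin, fell there by 0.45 (adjusted p = 0.00798), a call lost without the Y-high arrays (0.0688). Col1a1, a chain of fibrillar collagen and also 1 of the 8 mesenchymal markers, rose by 0.40 in Dicer mutants (adjusted p = 0.00227). Its rise of 0.26 in Yy1 mutants (adjusted p = 0.0356) is given here after its values were seen. Among other settings, that call was lost without any 1 control (0.0515 to 0.0966) and without the Y-high arrays (0.256). The mutants differed by -0.44 in each of Col4a1 (adjusted p = 0.00579) and Col4a2 (adjusted p = 0.00292), the chains of basement membrane collagen, and by -0.57 in Vcam1 (adjusted p = 0.00677), all in 21 of 21 settings. Against control these genes rose in Dicer mutants, by 0.30 (adjusted p = 0.0372), 0.27 (0.0347) and 0.45 (0.0195), given here after their values were seen. Each of those calls was lost when certain single arrays were left out. Endothelial markers moved beside them, at mean log2 levels per array of 9.42 to 9.71 in controls, 9.46 to 9.75 in the Yy1 mutants and 9.91 to 10.03 in the Dicer mutants, and their part in these differences was not tested.

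**Figure D5:**
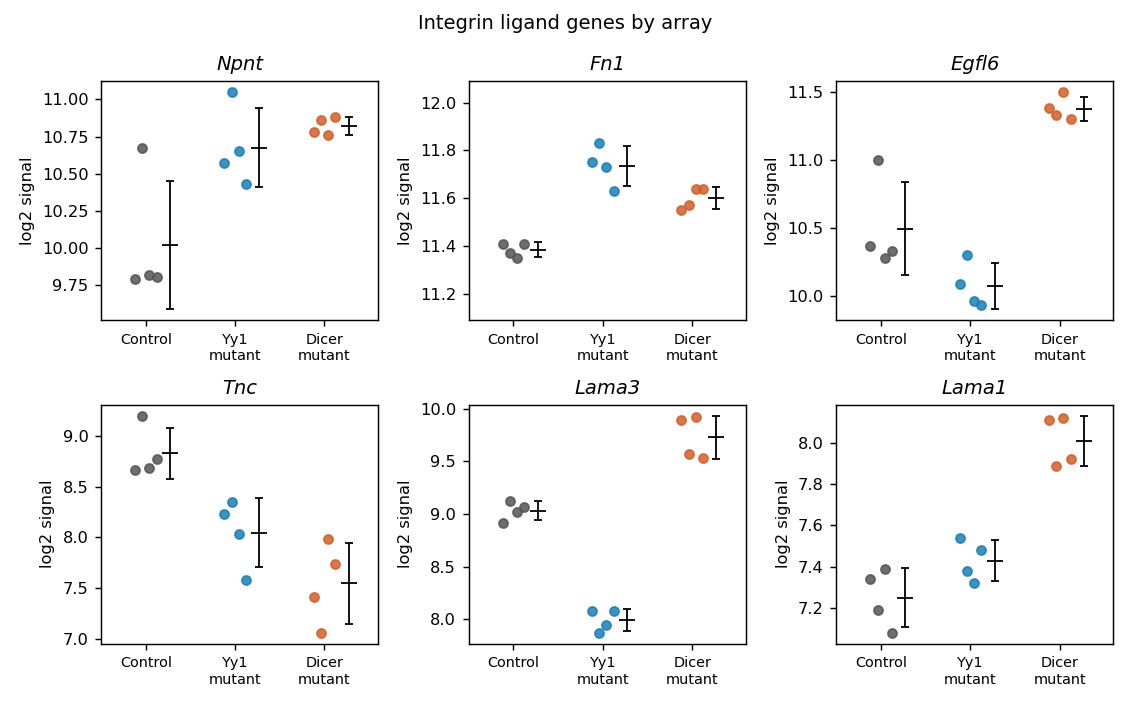
Log2 signal (y axis) of 6 integrin ligands in each array by genotype (x axis), with the mean and SD of 4 arrays. Lama3 falls in Yy1 mutants and rises in Dicer mutants, Tnc lies lower in both mutants, and 1 control array of Npnt lies among the mutants.

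The leukocyte integrins gave 1 call. Their means over the 12 arrays ran from 5.62 for Itgae to 6.22 for Itgb2, around the array medians of 5.99 to 6.08. Whether so dim a signal is above background was not tested. In Yy1 mutants limma called 0 of 6 chains, with 0 at an unadjusted p under 0.05 and differences of -0.11 to 0.14. In Dicer mutants 1 rose, 2 had an unadjusted p under 0.05, and the differences ran from -0.11 to 0.29. The shares called were 0% and 16.7%, where 6.61% and 8.75% of all genes were called. Between the mutants 0 of 6 were called, with 1 at an unadjusted p under 0.05. Itgam, the alpha chain of macrophages and granulocytes, read 5.85, 6.05, 5.86 and 5.79 in controls, 6.0, 5.95, 6.15 and 6.01 in the Yy1 mutants and 6.29, 6.08, 6.10 and 6.23 in the Dicer mutants. The Dicer mutants lay above all controls, the lowest by little, and the Yy1 mutants overlapped both. Its rise of 0.29 in Dicer mutants (SE 0.0768, 1.22-fold, adjusted p = 0.0341) was lost without control 1, 3 or 4 (0.0806, 0.0839 and 0.0879) and without Dicer mutant 1, 3 or 4 (0.0824, 0.0506 and 0.0979). It was also lost with a replicate block (0.0700), with only the 2 genotypes compared in the fit (0.0659) and without the Y-high arrays (0.128).

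Itgb2, the beta chain that Itgam, Itgal and Itgax share, differed by 0.05 in Yy1 mutants and by 0.22 in Dicer mutants (adjusted p = 0.0880), the latter called without control 2 (0.0399) and with array weights (0.0333). Itgal of lymphocytes differed by 0.10 in both, Itgax of dendritic cells by 0.04 and 0.10, Itgae of mucosal lymphocytes by 0.02 and -0.11, and Itgb7, the partner of Itgae, by -0.11 and -0.02. The macrophage and leukocyte marker list read 6.93 to 7.07 in controls, 7.31 to 7.53 in the Yy1 mutants and 7.45 to 7.69 in the Dicer mutants as mean log2 level per array, with median differences of 0.43 and 0.58. Its part in the Itgam and Itgb2 values was not tested. Neutrophil and lymphocyte markers gave 0 calls of 6 each in either mutant, with 1 neutrophil marker at an unadjusted p under 0.05 in Dicer mutants and 0 in the other 3 counts. Over all genes, 6.61% were called in Yy1 mutants and 8.75% in Dicer mutants, so 0 of 6 is near those shares. Both lists were dim, at mean log2 levels per array of 4.96 to 5.22 and 5.11 to 5.35, below the array medians of 5.99 to 6.08. Of 6 megakaryocyte and platelet markers 3 rose in Dicer mutants, where their mean level was 6.73 to 6.91 against 6.39 to 6.56 in controls, and their part in the rise of Itga2 was not tested.

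Among the proteins that act inside the cell, other than Fermt1, only Vcl was called. Neither talin, the activators that bind beta chain tails, was called in any comparison, and 0 of the 2 had an unadjusted p under 0.05. Tln1 differed by -0.04 and -0.03 and Tln2 by 0.11 and 0.13 in Yy1 and Dicer mutants. Of the 4 measured proteins of the Ilk complex limma called 0 in each comparison, with 1 at an unadjusted p under 0.05 in Dicer mutants and 0 in the other comparisons. Over all genes, 6.61% were called in Yy1 mutants, 8.75% in Dicer mutants and 4.96% between the mutants. Among so few genes, 0 calls is near those shares. Lims1 differed by 0.00 and -0.01, Parva by -0.13 and -0.12, Parvb by 0.06 and 0.24, and Parvg, the parvin of blood cells, by 0.16 and 0.16. Paxillin, Pxn, differed by 0.05 and 0.04.

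Vcl, vinculin, which reinforces the link to actin, read 10.23, 10.26, 10.16 and 10.12 in controls, 10.01, 10.03, 9.91 and 9.75 in the Yy1 mutants and 9.99, 9.97, 10.05 and 9.96 in the Dicer mutants. Both mutants lay below all controls. It fell by 0.27 in Yy1 mutants (SE 0.0704, 1.20-fold, adjusted p = 0.0361), and its difference of -0.20 in Dicer mutants was not called (adjusted p = 0.0968), except with an intensity trend in the prior (0.0327). The difference between the mutants was -0.06 (adjusted p = 0.697). The Yy1 call was lost without control 1, 2 or 3 (0.0899, 0.0833 and 0.0651), without Yy1 mutant 3 or 4 (0.0918 and 0.0982), without Dicer mutant 4 (0.0549), without the Y-high arrays (0.127) and with only the 2 genotypes compared in the fit (0.0940). The smooth muscle markers given above fell in both mutants, and their part in the Vcl values was not tested.

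The wider set of adaptors and signalling proteins was called at a share near or below that of all genes. Of 49 listed genes 45 were measured. In Yy1 mutants 1 rose, 2.22% where 6.61% of all genes were called. In Dicer mutants 1 rose and 2 fell, 6.67% against 8.75%, and the mutants differed in 2, 4.44% against 4.96%. Ptk2b, the kinase related to focal adhesion kinase, read 6.27, 6.24, 6.34 and 6.21 in controls and 6.68, 6.80, 6.57 and 6.55 in Yy1 mutants, a rise of 0.38 (adjusted p = 0.0343). The call was lost without any 1 control (0.0530 to 0.0760), without Yy1 mutant 1, 2 or 3 (0.0891, 0.0881 and 0.0574), with a replicate block (0.0507) and without the Y-high arrays (0.219). Actn1, the actin cross-linker alpha-actinin, fell by 0.26 in Dicer mutants (adjusted p = 0.0287) and was 0.29 higher in Yy1 than in Dicer mutants (adjusted p = 0.0246). Apbb1ip, the Rap1 effector that recruits talin, rose by 0.27 in Dicer mutants (adjusted p = 0.0306), and Itgb1bp2, a muscle protein that binds Itgb1, fell by 0.29 (adjusted p = 0.0419). Kank1, a talin-binding scaffold, was 0.36 lower in Yy1 than in Dicer mutants (adjusted p = 0.0144).

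The calls of these 4 genes were each lost when certain single arrays were left out. The Actn1 call in Dicer mutants was lost without control 1, 2 or 3 (0.0758, 0.0570 and 0.0521) or Dicer mutant 2, 3 or 4 (0.0844, 0.0592 and 0.0835). Its difference between the mutants was lost without Yy1 mutant 2 or 3 (0.0527 and 0.0610) or Dicer mutant 2, 3 or 4 (0.0721, 0.0562 and 0.0747). Apbb1ip lost its call without control 1, 3 or 4 (0.0719, 0.0612 and 0.0623) or Dicer mutant 2 or 4 (0.0994 and 0.0778). Kank1 lost its call without Yy1 mutant 3 (0.0530) or Dicer mutant 3 or 4 (0.0547 and 0.0541). Itgb1bp2 lost its call without control 1, 3 or 4 (0.0895, 0.0629 and 0.100), Yy1 mutant 1, 3 or 4 (0.0535, 0.0547 and 0.0526) or any 1 Dicer mutant (0.0508 to 0.117). All 4 were also lost without the Y-high arrays.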

How the data were processed

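The authors deposited log2 signals per probe set from 12 single-channel Affymetrix arrays, already normalised between arrays. How they were normalised, and with which software, is not given in the sources used here. The table held 41345 probe sets: 23521 paired with exactly 1 gene symbol in the platform annotation, 1814 with several and 16010 not listed. The brightest single-symbol probe set by mean over all arrays stood for each of 22180 genes, and 1082 genes had more than 1. Symbols were matched to RefSeq (GRCm38.p6) for all 35 members, and the promoter sequences are RefSeq's.

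The 3 genotypes were fitted in 1 linear model with limma 3.58.1 (R 4.3.3, lmFit and eBayes, 9 residual degrees of freedom), with contrasts between genotypes, two-sided tests and Benjamini-Hochberg adjustment over all genes. Calls are at an adjusted p under 0.05. Errors with ± are SDs over 4 arrays. The precision of every value is limited by 4 arrays a genotype. Counting and drawing used Python 3.11.15, pandas 2.3.3, numpy 2.4.6 and matplotlib 3.10.9. Arrays correlated pairwise at 0.978 to 0.991 and 0 pairs were identical.

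Results were recomputed in 21 alternative settings. These scaled arrays by quantiles or to equal medians, dropped the dimmest 30% of genes, averaged a gene's probe sets, gave the prior an intensity trend and made it robust, weighted arrays, fitted only the 2 genotypes compared, used the replicate number as a block, dropped the 3 Y-high arrays, or dropped each array in turn. Members called in any comparison, the kindlins, Itgb1, Itga3, Itga5, Itga6 and Itga8 are given array by array and the other members by their differences. From the ligand and adaptor lists, up to 6 called genes with the smallest p in each comparison are named, and any other is marked. The members, lists and alternatives were chosen with earlier results of these data known.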

Additional observations from a re-analysis of the deposited data

Results flagged for a closer look

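In 105 groups of 4 arrays (35 genes in 3 genotypes), 1 array stood apart from the other 3 in 5, by Dixon's ratio of the gap to the range. Chance alone sets an array apart in about 1 group in 20. For Itga3, Yy1 mutant 2 read 8.53 against 8.27 to 8.32. Control 2 stood apart in 3 genes: it read 9.80 for Itga6 against 9.60 to 9.61, 9.27 for Fermt2 against 9.24, and 5.51 for Parvg against 5.81 to 5.87. For Lims1, Dicer mutant 3 read 8.14 against 8.06 to 8.07.

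In 9 genes the mutants differed from each other in the direct limma contrast. The log2 difference of Yy1 minus Dicer mutants was -2.49 for Fermt1, -0.58 for Itgb6, -0.56 for Itga2, -0.49 for Itgb3, -0.42 for Itga6 and -0.34 for Itga4. It was 0.48 for Itga9, 0.40 for Itgb5 and 0.27 for Itga8. Those of Fermt1, Itga2, Itga6 and Itga9 were called in all 21 alternatives.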

How the results depend on the processing

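Of the members' calls, 3 of 9 in Yy1 mutants (Itga8, Itgb6, Itgb8), 5 of 8 in Dicer mutants (Itga2, Itga8, Itgb8, Itga9, Fermt1) and 4 of 9 between the mutants held in all 21 alternatives. Counts below are in the order Yy1 against control, Dicer against control, Yy1 against Dicer, and beyond fewer arrays the cause of a move was not tested. Without the Y-high arrays, calls over all genes numbered 606, 976 and 435, those of the ligands 4, 9 and 7, and those of the adaptors 0, 0 and 0. The members gave 3 in Yy1 mutants and 4 between the mutants. The members' differences in Yy1 mutants whose calls were lost there kept their sign. They were 0.23 for Itgav, -0.46 for Itgb3, 0.47 for Itgb5, -0.33 for Itga4, -0.53 for Fermt1 and -0.31 for Vcl. With all arrays they were 0.27, -0.40, 0.43, -0.34, -0.58 and -0.27. Array weights gave 1806 calls over all genes between the mutants, and 7 and 4 adaptors in Dicer mutants and between the mutants. The intensity trend gave 2 adaptors in Yy1 and 6 in Dicer mutants, quantile normalisation 5 and the dim filter 6 in Dicer mutants. With single arrays left out, counts over all genes ran from 1020 to 1455, 1275 to 1991 and 726 to 1180, those of the ligands 6 to 10, 9 to 14 and 7 to 11, and those of the adaptors 0 to 1, 0 to 6 and 0 to 2. Those of the members ran from 6 to 10, 7 to 9 and 6 to 9.

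Replicate numbers are not said to pair specimens. Same-numbered arrays deviated together at correlations of 0.0583 to 0.116, -0.0198 to 0.190 and -0.161 to -0.0251. Of 8 arrays, 4, 2 and 0 correlated best with their own number. For Yy1 mutants against controls the correlations were low but all above 0, so this check does not settle whether numbers pair specimens there. Because the labels name no pairs, the numbers were used as a block only in 1 alternative. The replicate block gave 1301, 1848 and 997 calls over all genes, 8, 7 and 8 members, 7, 13 and 10 ligands, and 0 adaptors in Yy1 mutants.

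Among the members given array by array, signs turned in differences near 0 that were not called. These were Itga2 in Yy1 mutants (0.0224 with quantile normalisation, 0.00985 with array weights, -0.0125 to 0.0217 with single arrays left out), Fermt3 in Yy1 mutants (-0.0505 without the Y-high arrays), Itgb5 in Dicer mutants (-0.0132 to 0.0900) and Itga4 in Dicer mutants (-0.00842 with quantile normalisation, -0.00418 without the Y-high arrays, -0.0370 to 0.0473). Between the mutants they were Itga5 (0.00463 with quantile normalisation, 0.00632 without the Y-high arrays, -0.0554 to 0.00479) and Itgb8 (-0.0119 with equal medians, -0.0054 with weights, -0.0576 to 0.0486).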
